A study of Mus musculus with 6 samples.

Results

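The genes described here are the protein-coding core and linker histone genes of the mouse and their variants, read in whole testis after 16 weeks on an ethanol liquid diet or on the control liquid diet. Members were chosen by gene symbol and biotype alone, which gave 80 of the 45777 genes in the table. They fell into 54 replication-dependent genes, 5 replacement variants and 21 testis-specific genes. The replication-dependent genes comprised 5 of H1, 13 of H2A, 14 of H2B, 12 of H3 and 10 of H4. The replacement variants were H1f0, H1f10, H3f3a, H3f3b and H3f3c. The testis-specific genes were H2ac1 and H2bc1, which encode the H2A and H2B called TH2A and TH2B, 18 H2al genes and H2ap. A further 11 histone genes stood in the table under older symbols that the choice by symbol did not reach, among them those of H2A.X (H2afx) and H2A.Z (H2afz and H2afv). They were not counted as members, and their values are given separately.

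Both groups were wild-type mice (genotype WT in the labels), whose strain and age the labels do not give. All were acclimatized to the liquid diet for 5 days on its control form (LDC in the labels), and then received 10 ml of liquid diet per head and day for 16 weeks. The ethanol group was fed with ethanol (Ethanol-fed), the control group without it (Control-fed), with 3 total RNA libraries each. Nothing in the labels says whether the 3 libraries of a group came from separate animals, so a p-value here reflects no more than the spread of these libraries, which may be technical.

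Total counts ranged from 38935654 to 47420249 per library. Markers of every germ cell stage were read in all libraries: the summed TPM of 10 spermatocyte markers was 7064 to 7424 in the control and 7082 to 7389 in the ethanol libraries, and that of 8 elongating spermatid markers 43380 to 46610 and 44620 to 49980. TPM is scaled to transcript length and to the same sum in each library, and it is the only scale used here to compare one gene with another. CPM is the count scaled to library size by TMM and is used to compare one gene between the diets. Values of a diet are listed in the order of libraries 1, 2 and 3, numbers that name a library and do not tie it to one of the other diet.

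Core histones H2A, H2B, H3 and H4 form the nucleosome around which DNA is wrapped, and H1 binds the linker DNA. Replication-dependent genes supply histones in S phase. Most of their mRNAs lack a poly(A) tail and end just after a conserved stem-loop, which is bound by the protein Slbp. Most replacement variants are made throughout the cell cycle from ordinary polyadenylated mRNAs. In the testis, spermatocytes and spermatids replace much of their canonical H2A and H2B by TH2A and TH2B, spermatids load short H2A variants such as H2A.L.2, and most histones then give way to transition proteins and protamines. Libraries made after removal of ribosomal RNA, as here, do not depend on a poly(A) tail.

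Examples of the stem-loop from each core family are shown, since it is how most replication-dependent histone mRNAs end, and with them that of H2afx, a variant gene under an older symbol. The histone stem-loop consensus, with 3 of its bases left free, was searched on the sense strand after the stop codon of GENCODE M21 transcripts. Capitals mark the match and lower case the flanking bases, 5′ to 3′, with T for U.
H2ac18: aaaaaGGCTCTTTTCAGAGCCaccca
H2bc14: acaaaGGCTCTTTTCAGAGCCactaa
H3c3: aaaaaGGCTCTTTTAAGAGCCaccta
H4c3: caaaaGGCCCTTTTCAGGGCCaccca
H4c14: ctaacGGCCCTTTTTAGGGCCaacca
H2afx: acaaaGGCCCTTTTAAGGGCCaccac

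Of 21901 protein-coding genes, 44 (0.201%) held this motif after the stop codon, and 41 of these 44 were histone members or histone genes under older symbols. It was found in 34 of the 54 replication-dependent members (63.0%), 21 to 58 bases after the stop, in 0 of 4 replacement variants with a transcript and in 0 of 21 testis-specific genes. Of the 20 replication-dependent members without a match, 10 had transcript models that ended at the stop codon. The form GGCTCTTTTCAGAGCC was found in 22 members, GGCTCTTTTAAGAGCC in 5 and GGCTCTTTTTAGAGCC in 1. The forms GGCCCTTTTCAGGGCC, found in 4, and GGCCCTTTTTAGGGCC, found in 2, belonged to the 6 H4 genes that held the stem-loop. A match is a description of these letters and not of a processing event.

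Promoter windows were compared next, since many of these genes lie in clusters. Of the members, 44 lay on chromosome 13, 10 on chromosome 3 and 16 on chromosome X. RefSeq windows of GRCm38.p6 (mm10), from 250 bases before to 50 after the start, were at hand for 75 members and were searched on both strands. CCAAT occurred in 43 of 49 replication-dependent windows (87.8%), in 3 of 21 testis-specific ones and in 41.1% of 27025 windows of all genes. TATAAA occurred in 29 of the 49 (59.2%) and in 15.7% of all windows. The octamer ATTTGCAT was found in 6 of 12 H2B and 5 of 13 H2A windows of replication-dependent genes. It was found in 0 of their H1, H3 and H4 windows, and in 2.0% of all windows. Of 5 replacement variant windows, 2 held CCAAT and 1, that of the H3.3 gene H3f3b, held TATAAA and the octamer.

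The upstream 250 bases of the most abundant member and of a replication-dependent H2A gene are printed with the 3 motifs, or their reverse complements, in capitals, 5′ to 3′ on the strand of the gene. These matches do not overlap one another. That of H2bc1 lies at chr13:23934157-23934406 on the minus strand and that of H2ac18 at chr3:96245247-96245496 on the plus strand. The 50 bases after the start were searched but are not printed, and the TATAAA match counted for H2ac18 reaches into them.
H2bc1: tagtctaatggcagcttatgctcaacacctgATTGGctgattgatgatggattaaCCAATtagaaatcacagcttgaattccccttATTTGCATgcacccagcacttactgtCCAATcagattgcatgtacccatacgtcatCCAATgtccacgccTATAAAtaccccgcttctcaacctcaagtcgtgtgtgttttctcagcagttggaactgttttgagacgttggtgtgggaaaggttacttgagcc
H2ac18: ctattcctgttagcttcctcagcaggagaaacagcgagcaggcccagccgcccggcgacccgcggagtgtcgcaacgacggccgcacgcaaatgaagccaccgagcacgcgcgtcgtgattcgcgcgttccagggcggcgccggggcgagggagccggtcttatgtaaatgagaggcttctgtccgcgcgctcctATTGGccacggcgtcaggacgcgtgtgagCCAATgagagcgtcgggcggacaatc

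H2bc1 (chr13:23933725-23934156) and H2ac1 (chr13:23934437-23934913), the genes of TH2B and TH2A, are divergent neighbours whose starts lie 280 bases apart. Their upstream windows share 220 bases, so that the 4 CCAAT matches, the octamer and the TATAAA match at -94 printed for H2bc1 are also read, on the other strand, in the window of H2ac1.

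H2bc1 was the most abundant of the 80 members. Its mean level over the 6 libraries was 2125.2 TPM, 22.2% of the summed TPM of the 80 members. The next levels were much lower: H4c3, a replication-dependent H4 gene, was read at 526.3 TPM, the variant H2al2a (H2A.L.2) at 501 TPM, the H3.3 genes H3f3a and H3f3b at 499.4 and 448.4 TPM, H2ac18 and H2ac19 at 463 and 436.2 TPM, H2ap at 410.4 TPM and H2ac1 at 391.1 TPM. Neighbours in this order were not separated by their spread. H4c3 ranged from 436.22 to 676.32 TPM over the libraries, H2al2a from 468.31 to 534.31 TPM and H2ac18 from 321.89 to 619.64 TPM. H2bc1, at 1628.8 to 2562.2 TPM, lay above every other member in each library. This order covers the members alone. Histone genes outside the set also had higher mean levels than H4c3. They include Hils1 at 1222 TPM, H1f7 at 660.6 TPM, H1f6 at 641 TPM and H3f4 at 569.2 TPM.

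Levels were spread over 3 orders of magnitude within the set, with 22 members at 100 TPM or more and 17 under 10 TPM. The median level was 24.6 TPM among replication-dependent genes (2.48 to 526.3 TPM), 13.3 TPM among replacement variants (9.58 to 499.4 TPM) and 117.2 TPM among testis-specific genes (0.713 to 2125.2 TPM). Within the replication-dependent class, medians were 67.8 TPM for H4, 36.7 TPM for H2B, 27.7 TPM for H1, 24.5 TPM for H2A and 9.0 TPM for H3. H4c3 led H4 and H3c1 led H3, while H2B levels were spread over many genes. H2ac18 and H2ac19 stood more than 10-fold above the next H2A gene, H2ac13 at 38.5 TPM, and H1f1, a linker histone gene, at 329.9 TPM made up most of H1.

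**Figure D1:**
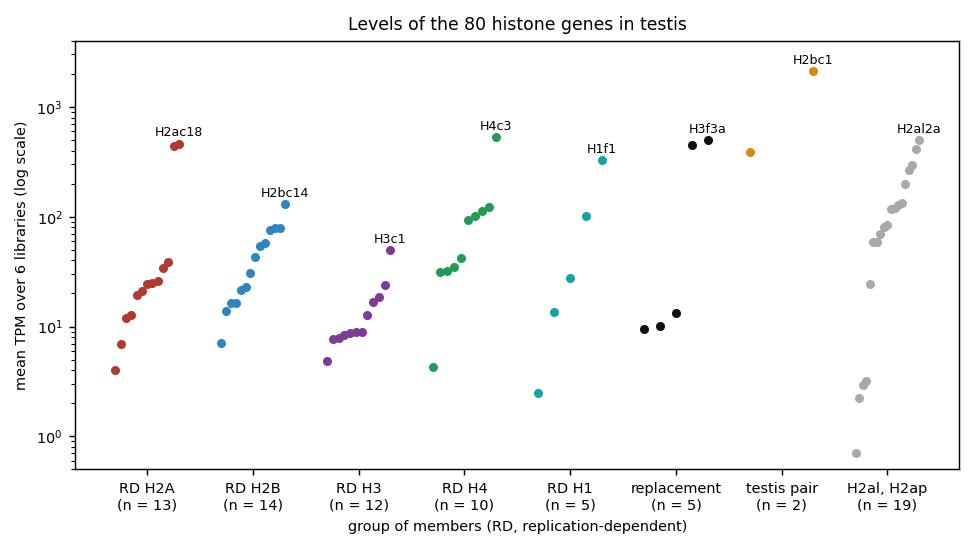
Mean TPM over the 6 libraries, on a log scale, of each of the 80 members, grouped by class and family, with the highest member of each group named. H2bc1, at 2125.2 TPM, lies above every other member.

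With the diets compared, no member passed the test. The edgeR quasi-likelihood fit tested 25073 genes, of which 0% were called higher and 0% lower at an adjusted p of 0.05 with the Benjamini-Hochberg adjustment, and among the 79 members tested it called 0. The lowest adjusted p of a member was 0.187. DESeq2 called 330 genes, 203 higher (0.81%) and 127 lower (0.507%), and 1 member, the linker variant gene H1f10. limma-voom called 5 genes and 0 members. The member not tested was H2al1j, with 2 to 9 counts per library. At an unadjusted p under 0.05, edgeR gave 10 members, 1 higher in ethanol (7.45% of all tested genes are higher by this rule) and 9 lower (11.4% of the members, against 5.89% of all tested genes). The groups did not overlap for 1 member higher in ethanol (9.76% of all tested genes) and for 4 lower (5.06%, against 9.01% of all). In these bulk samples, fewer cells of a type and less RNA per cell cannot be told apart.

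The classes differed in where their fold changes lay, although no difference between them was tested. Of the replication-dependent genes, 44 of 54 had a log2 fold change (ethanol over control) below 0, with a median of -0.18. Over all tested genes 48.5% lay below 0, with a median of 0.0065. Of the replacement variants, 4 of 5 lay below 0, with a median of -0.07, which moved to -0.17 when ethanol library 3 was left out and to -0.03 when ethanol library 1 was. Of the 20 testis-specific genes tested, 16 lay above 0 and 4 below, with a median of 0.04, which turned to -0.0046 without control library 2 and to -0.05 without ethanol library 3. The replication-dependent median was -0.03 without control library 3. The replacement variant median was then -0.07, so that the order of these classes reversed. Without ethanol library 3 the replication-dependent median was -0.36, and 15 of the 20 testis-specific genes lay below 0. At an unadjusted p under 0.05, 6 of the 54 replication-dependent genes (11.1%) were lower in ethanol, against 5.89% of all tested genes. Of the same 54, 1 (1.85%) was higher, against 7.45% of all tested genes. Among the 6, H2ac18, H2ac19, H3c14 and H3c15 share much of their sequence with other genes, so these cannot be counted as separate results. The number lower was 3 without control library 3, 2 without ethanol library 1 or 2, 12 without control library 2 and 23 without ethanol library 3.

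**Figure D2:**
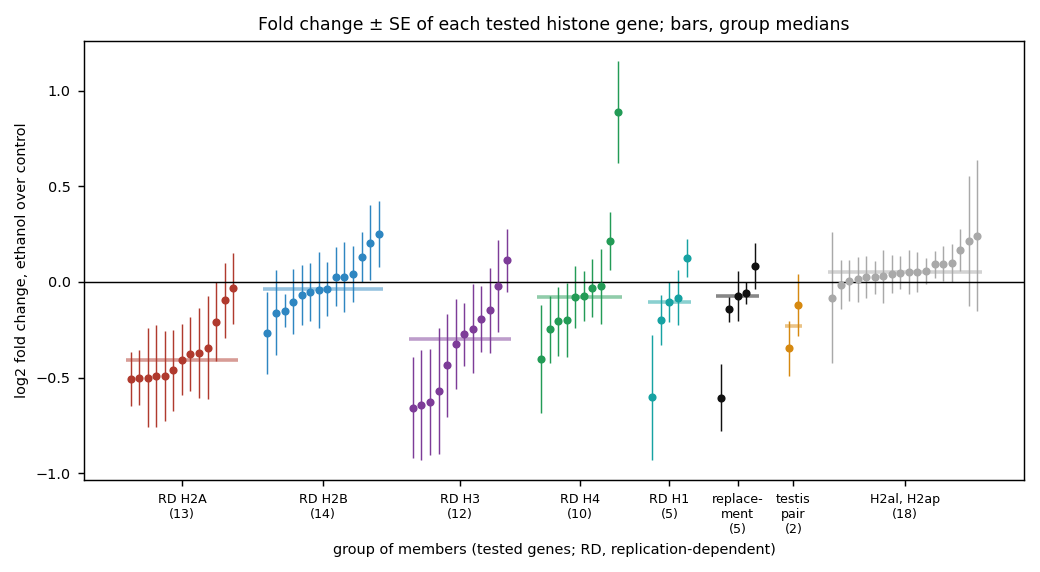
Log2 fold change (ethanol over control) from edgeR, with its standard error, of each of the 79 members tested, sorted within groups, with a horizontal bar at each group's median. The 13 replication-dependent H2A genes all lie below 0 (median -0.41), the 14 H2B genes lie on both sides (median -0.04), and H4c14 stands alone at 0.89. The testis pair is H2ac1 and H2bc1.

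Replication-dependent H2A had the lowest median fold change of the 5 families, although 4 single H3 genes had lower values than any H2A gene. All 13 genes had values below 0, from -0.51 to -0.03, with a median of -0.41. Their summed level was 1124, 1215 and 1510 TPM in the control libraries and 981.2, 790.3 and 1117 TPM in the ethanol libraries, or 1283 ± 201.8 TPM against 962.8 ± 164.1 TPM (SD, n = 3). Ethanol library 2 was the lowest and control library 3 the highest, and the groups did not overlap on this scale. As a share of all counts they did overlap, at 0.03337% in control library 1 and 0.03357% in ethanol library 3. The family's median deviation of log2 CPM also overlapped, at 0.19 in ethanol library 3 and 0.002 and 0.02 in control libraries 1 and 2. Each of the 13 genes was highest in control library 3. Without that library the family median was -0.17, with 10 of the 13 below 0, and without ethanol library 3 it was -0.63. On log2(TPM + 1), 12 of the 13 lay below 0. The median stayed below 0 in each of the 17 alternative settings.

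H2ac18 (chr3:96245497-96246052) and H2ac19 (chr3:96239779-96240374), neighbouring genes on chromosome 3, carried most of the H2A signal. H2ac18 was read at 140.4, 141.89 and 192.41 CPM in the control and at 109.11, 91.17 and 135.4 CPM in the ethanol libraries. All 3 ethanol libraries were below all 3 control libraries, by a small margin between ethanol library 3 and control library 1. The means were 158.2 ± 29.6 and 111.9 ± 22.2 CPM (SD, n = 3), for a log2 fold change of -0.50 (SE 0.14) with an adjusted p of 0.187 in edgeR. H2ac19 was read at 143.03, 143.2 and 194.08 CPM against 110.12, 92.18 and 135.75 CPM, for a log2 fold change of -0.51 (SE 0.14, adjusted p 0.187 in edgeR). These are not 2 independent results. The transcripts are near copies: 89.4% of the 50-base windows of H2ac18 and 100% of those of H2ac19 occur in another gene, and the ratio of their counts stayed between 0.982 and 0.997 in all libraries, so that how reads were shared between them is uncertain.

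H3 genes, at lower levels, also lay mostly below 0. Of the 12 replication-dependent H3 genes 11 had values below 0, with a median of -0.30, which was -0.11 without control library 3, -0.17 without ethanol library 1 and, with 12 of 12 below 0, -0.55 without ethanol library 3. H3c15, a chromosome 3 gene, was read at 3.23, 2.46 and 4.96 CPM in the control and at 1.66, 2.17 and 2.9 CPM in the ethanol libraries. Its groups overlapped, and its log2 fold change of -0.66 (SE 0.26) had an adjusted p of 0.314 in edgeR. H3c3, on chromosome 13, was read at 3.29, 2.86 and 5.72 CPM against 2.54, 1.78 and 3.36 CPM, for a log2 fold change of -0.63 (SE 0.28, adjusted p 0.357 in edgeR). Without control library 3 the values of H3c15 and H3c3 were -0.35 and -0.27, and without ethanol library 3 both were lower, at -0.89 and -0.88. Leaving out ethanol library 2 gave -0.42 for H3c3. H3c14, near H3c15, had a log2 fold change of -0.64, and all of its 50-base windows occur in another gene. H3c1 and H3c10, the H3 genes of highest level, had values of -0.27 and -0.19, with overlapping groups. In each of these 5 genes control library 3 was the highest.

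H2B genes lay on both sides of 0. Of 14 replication-dependent H2B genes, 8 lay below 0 and 6 above, with a median of -0.04 that turned to 0.09 without control library 3 and to 0.11 without ethanol library 1. The summed level was 641.8 ± 79.7 TPM in control and 651.8 ± 97.95 TPM in ethanol (SD, n = 3). H2bc14, the most abundant of them, was read at 31.25, 28.99 and 37.16 CPM in the control and at 24.25, 34.71 and 40.16 CPM in the ethanol libraries, a log2 fold change of 0.03 (SE 0.15), with ethanol library 1 the lowest and ethanol library 3 the highest. H2bc11 had a value of -0.04. H2bc18 had the highest value of the family, 0.25 (SE 0.17, edgeR adjusted p 0.568), from 7.07, 7.21 and 7.34 CPM in control and 6.12, 8.83 and 10.79 CPM in ethanol, and was 0.05 without ethanol library 3 and 0.44 when ethanol library 1 was left out.

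Of the 10 replication-dependent H4 genes, 8 lay below 0, with a median of -0.08 that turned to 0.04 without control library 3 and lay between -0.27 and -0.01 with any of the other 5 left out. H4c3, the most abundant H4 gene, was read at 107.1, 84.82 and 141.65 CPM in the control and at 79.2, 85.75 and 124.07 CPM in the ethanol libraries, so that library 3 was high in both groups. Its log2 fold change was -0.21 (SE 0.18, edgeR adjusted p 0.674). This value was -4.8e-05 without control library 3, and with ethanol library 1, 2 or 3 left out it was -0.08, -0.13 and -0.44. Leaving out control library 2 gave -0.37. H4c1 and H4c4 had values of -0.25 and 0.21. H4c14 (chr3:96262934-96263317) and H2bc18 were the 2 chromosome 3 genes with values above 0. H4c14 was read at 0.47, 0.63 and 0.71 CPM in the control and at 0.88, 1.21 and 1.24 CPM in the ethanol libraries, 22 to 53 counts per library. The groups did not overlap, and its log2 fold change of 0.89 (SE 0.27) had an adjusted p of 0.203 in edgeR. Only 1.0% of its 50-base windows occur in another gene.

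**Figure D3:**
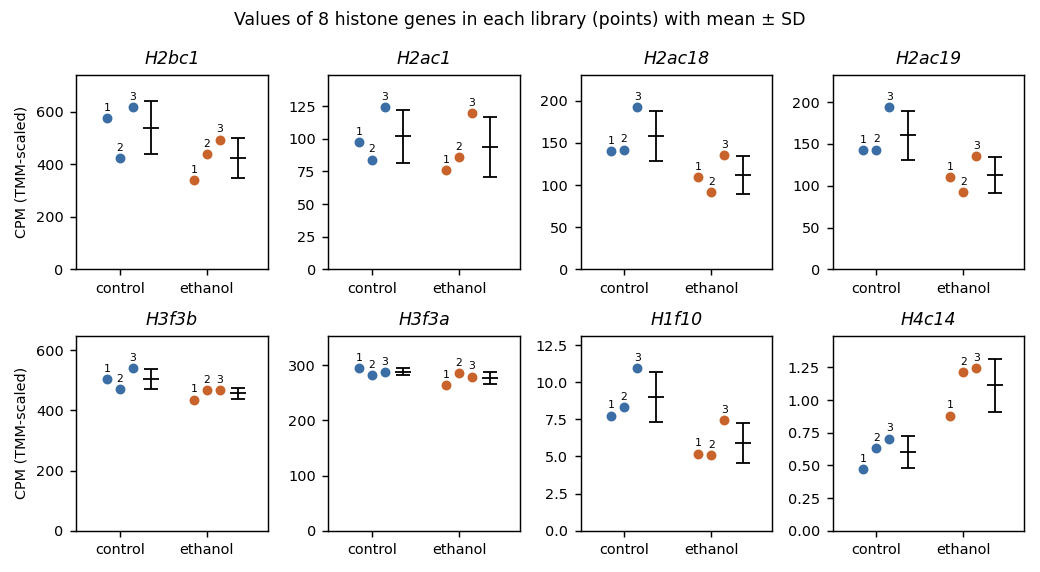
TMM-scaled CPM of 8 members in each library (points, numbered by library), with the mean and SD of the 3 libraries of each diet beside them, on axes that start at 0. The diets do not overlap for H2ac18, H2ac19, H3f3b, H1f10 and H4c14, and they overlap for H2bc1, H2ac1 and H3f3a.

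Of the 5 H1 genes of the replication-dependent class 4 lay below 0, with a median of -0.11. H1f1, the most abundant linker histone among the members, was read at 121.93, 112.79 and 133.61 CPM in the control and at 114.98, 134.37 and 152.22 CPM in the ethanol libraries, a log2 fold change of 0.12 (SE 0.10, adjusted p 0.624 in edgeR). The values of H1f2, H1f3 and H1f4 were -0.11, -0.08 and -0.20, with overlapping groups. H1f5 had a value of -0.60 (SE 0.33) that came from control library 1, at 1.99 CPM, while the other 5 libraries lay between 0.777 and 0.926 CPM. Without that library its log2 fold change was -0.11.

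Among the replacement variants, the 2 abundant genes encode H3.3, the H3 that is deposited outside replication. H3f3a was read at 294.6, 281.99 and 287.75 CPM in the control and at 264.29, 286.53 and 279.68 CPM in the ethanol libraries, a log2 fold change of -0.06 (SE 0.06, adjusted p 0.714 in edgeR). H3f3b was read at 503.09, 471.13 and 539.71 CPM against 435.93, 466.7 and 467.67 CPM, or 504.6 ± 34.3 and 456.8 ± 18.1 CPM (SD, n = 3). Its groups did not overlap, though control library 2 lay just above ethanol libraries 2 and 3, and its log2 fold change of -0.14 (SE 0.06) had an adjusted p of 0.360 in edgeR. H3f3c had a value of 0.08 and H1f0, the gene of the linker variant H1.0, of -0.07.

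H1f10, the gene of the linker variant H1.10, gave the lowest value of this class. It was read at 7.76, 8.32 and 10.94 CPM in the control and at 5.19, 5.1 and 7.46 CPM in the ethanol libraries, with library 3 the highest in both groups and no overlap. The means were 9.0 ± 1.7 and 5.91 ± 1.34 CPM (SD, n = 3). Its log2 fold change was -0.61 (SE 0.17), with an adjusted p of 0.190 in edgeR and 0.0401 in DESeq2.

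The replication-dependent and the replacement classes were set against each other by the ratio of their summed levels in each library. Replication-dependent genes summed to 3433, 3400 and 4288 TPM in the control libraries and to 3100, 3027 and 3885 TPM in the ethanol libraries. Replacement variants summed to 998, 1019 and 984.4 TPM against 961.4, 987.4 and 934.2 TPM, a much smaller spread. The ratio of the sums was 3.71 ± 0.56 in control and 3.48 ± 0.59 in ethanol (SD, n = 3), a difference below the spread between libraries. Genes under older symbols were not in these sums. They include the replacement variants H2afz and H2afx, at mean levels of 390 and 174.4 TPM, and replication-dependent genes such as Hist1h4n at 185.8 TPM. The ratio therefore covers the members alone. Genes of H3.3 held 83.6 ± 3.28% of the summed TPM of all H3 members in control and 85.3 ± 2.54% in ethanol, with overlapping groups. All members together took 0.311 ± 0.032% of all counts in control and 0.287 ± 0.032% in ethanol.

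The pair of testis histones gave lower means with ethanol and overlapping groups. H2bc1 was read at 576.93, 424.42 and 618.16 CPM in the control and at 340.56, 438.51 and 493.81 CPM in the ethanol libraries. The means were 539.8 ± 102.1 and 424.3 ± 77.6 CPM (SD, n = 3), for a log2 fold change of -0.35 (SE 0.14) with an adjusted p of 0.324 in edgeR. Control library 2 lay within the ethanol range. The value was -0.21 without ethanol library 1 and -0.49 without control library 2. H2ac1, across the shared promoter, was read at 97.35, 84.06 and 124.34 CPM against 76.0, 85.94 and 119.71 CPM, for a log2 fold change of -0.12 (SE 0.16, adjusted p 0.803 in edgeR) that turned to 0.04 without control library 3 and to 0.01 without ethanol library 1. In both genes ethanol library 1 was the lowest and control library 3 the highest.

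H2bc1 was also compared with the other H2B genes of the same library, a share in which the scaling between libraries cancels. It held 80.2%, 77.2% and 77.8% of the summed H2B TPM in the control libraries and 74.5%, 75.6% and 73.7% in the ethanol libraries. The means were 78.4 ± 1.58% and 74.6 ± 0.936% (SD, n = 3), and the groups did not overlap. H2B genes under older symbols were not in this sum. The share was chosen after values were seen and was given no test.

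The H2al genes and H2ap, short H2A variants of spermatids, showed values close to 0. Of 17 H2al genes tested, 15 lay above 0 with a median of 0.05, and 0 of them passed an unadjusted p of 0.05. The summed level was 2065, 2059 and 2047 TPM in the control libraries and 2057, 2287 and 2361 TPM in the ethanol libraries, so that ethanol library 1 lay within the control range. H2al2a, the gene of H2A.L.2, was read at 136.29, 128.64 and 146.05 CPM against 137.44, 144.16 and 156.55 CPM, for a log2 fold change of 0.09 (SE 0.07, adjusted p 0.617 in edgeR). H2al3 was read at 73.88, 68.34 and 74.48 CPM in control and 66.1, 82.21 and 95.08 CPM in ethanol, a value of 0.17 (SE 0.11). H2ap was read at 114.54, 110.72 and 123.26 CPM in control and 115.03, 119.76 and 127.58 CPM in ethanol, a value of 0.06 (SE 0.07).

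The 13 H2al1 genes tested lay between -0.08 (H2al1o) and 0.10 (H2al1k). H2al1n was at 0.10, H2al1b, H2al1e and H2al1i at 0.05, H2al1a at 0.04, H2al1g and H2al1m at 0.03, H2al1h at 0.02, H2al1c and H2al1f at 0.01, and H2al1d at -0.01. In 11 of these 13 the sign changed when 1 library or another was left out. Of the 14 H2al1 genes, 11 share more than 80% of their 50-base windows with another gene, so that the level of a single copy is uncertain. H2al2b and H2al2c, at about 3 TPM, had values of 0.21 and 0.24 with standard errors of 0.34 and 0.39.

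Of the 11 histone genes under older symbols, H2afx had the lowest value. It encodes H2A.X, the variant phosphorylated at DNA breaks and over the sex chromosomes of spermatocytes, and its mRNA holds the stem-loop printed above. H2afx was read at 127.04, 135 and 203.81 CPM in the control and at 82.3, 77.73 and 125.44 CPM in the ethanol libraries, so that all ethanol libraries were below all control libraries. The means were 155.3 ± 42.2 and 95.2 ± 26.3 CPM (SD, n = 3), for a log2 fold change of -0.71 (SE 0.19) with an adjusted p of 0.179 in edgeR and 0.274 in DESeq2. Without control library 3 its value was -0.47. H2afz and H2afv, the genes of H2A.Z, had values of -0.05 and -0.01, with mean levels of 390 and 18.9 TPM. The signs of H2afz and H2afv changed with the scaling and the libraries used: on log2(TPM + 1) they were at 0.0002 and 0.04, and without ethanol library 1 at 0.0027 and 0.0090. The 8 replication-dependent genes under older symbols ranged from -0.48 (Hist1h2an) to -0.02 (Hist1h4m), with overlapping groups in all 8. Without control library 3, 3 of the 8 were above 0: Hist1h4m at 0.17, Hist1h4n at 0.07 and Hist1h2ap at 0.06. Without ethanol library 1, Hist1h2bq was at 0.01, Hist1h4n at 0.03 and Hist1h4m at 0.13. Hist1h4m was also above 0 without ethanol library 2 (0.07), with total counts alone (0.0044) and on log2(TPM + 1) (0.01).

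Levels of replication-dependent genes varied by library within each diet. Of the 54, 52 were highest in control library 3 (35 genes) or ethanol library 3 (17 genes), and 43 were lowest in ethanol library 1 (25 genes) or 2 (18 genes). The median deviation of log2 CPM from the 6-library mean was 0.01, -0.14 and 0.37 in the control libraries and -0.29, -0.23 and 0.25 in the ethanol libraries. The difference between diets, -0.165, was below the SD within control (0.266) and within ethanol (0.295). For H2A the difference was -0.378, with SDs of 0.312 and 0.349. The replacement variants moved less, from -0.14 in ethanol library 1 to 0.07 in control library 1.

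**Figure D4:**
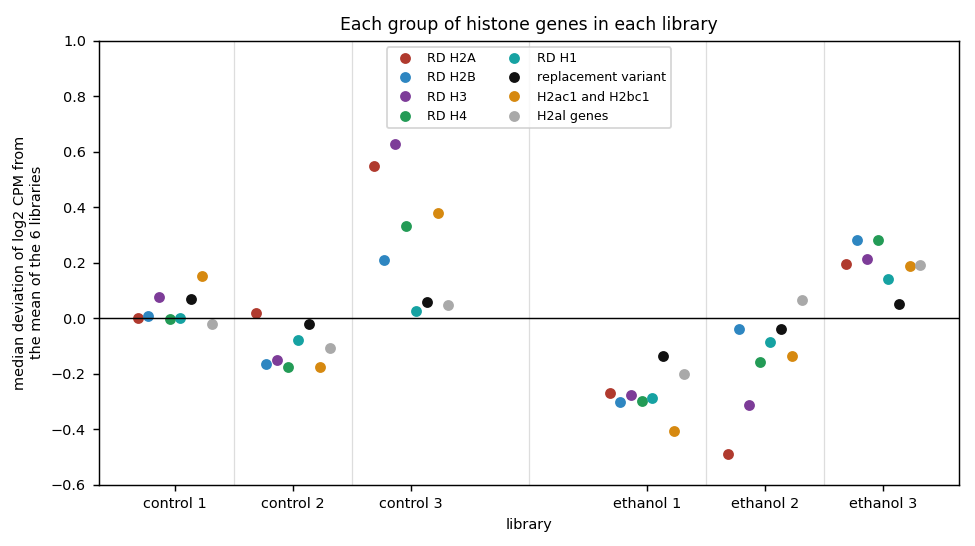
Median deviation of log2 CPM from the mean of the 6 libraries, for 8 groups of histone genes in each library (1 point per group, offset sideways within a library). All 8 groups are above 0 in control library 3 and in ethanol library 3 and below 0 in ethanol library 1, and H2A (0.55) and H3 (0.63) are highest in control library 3.

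Genes of similar transcript length and some of the other gene lists moved with the same libraries. Of the replication-dependent genes 43 have lengths of 400 to 700 bases. All 1528 tested genes of that length had median deviations of 0.02, -0.08 and 0.11 in the control libraries and -0.04, -0.03 and 0.07 in the ethanol libraries, again highest in the libraries numbered 3. Their median log2 fold change was -0.02. With an offset for transcript length the H2A median was -0.39 and the H3 median -0.27. The 8 elongating spermatid markers had median deviations of 0.004, -0.09 and 0.14 in control and -0.11, -0.05 and 0.10 in ethanol. Other histone variants were at 0.13 and 0.14 in control and ethanol library 3, and genes of histone removal at 0.07 and 0.09. S phase genes did not move in this way, at 0.04, -0.02 and -0.02 in control and -0.001, -0.02 and -0.002 in ethanol. Spermatocyte markers were at 0.08 in control library 3 and -0.06 in ethanol library 3. The part of length and of cell composition in the histone values was not tested further.

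The replication-dependent genes were also split by features that the choice by symbol had not used, with no test of the difference. Replication-dependent genes with a stem-loop had a median of -0.20 (34 genes) and those in which none was found of -0.15 (20 genes). The median was -0.18 for the 42 genes on chromosome 13 and -0.32 for the 10 on chromosome 3, where 8 lay below 0. On chromosome 3, 4 genes were lower at an unadjusted p under 0.05 (5.89% of all tested genes are) and 1, H4c14, was higher. The 4 are H2ac18, H2ac19, H3c14 and H3c15, in which 63.5% to 100% of the 50-base windows occur in another gene, so they cannot be counted as 4 separate results. Genes that share more than 50% of their windows with others had a median of -0.21 (25 genes) and the rest of -0.11 (29 genes). This share was taken over the GENCODE transcript, which for some genes is much longer than the length behind the deposited values. For H2ac6 it has 2482 bases against 541. A low share there does not mean that the counted part is free of shared sequence.

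Genes that make, end or handle histone mRNA and protein showed no common shift. Of 18 genes of histone mRNA transcription and 3′ end processing, 7 lay above 0 and 11 below, and 1 (Sympk, a scaffold of the cleavage machinery) had an unadjusted p under 0.05, with 160.7 ± 8.0 CPM in control and 138.9 ± 9.0 CPM in ethanol. Slbp, the stem-loop binding protein, had a log2 fold change of -0.03 (SE 0.06), Npat, the activator of histone gene transcription, of 0.10 and Mif4gd of -0.11. Of 28 histone chaperones and remodelers, 11 lay above 0 and 17 below. Atrx, which deposits H3.3 together with Daxx, was read at 28.6 ± 1.6 CPM in control and 36.9 ± 1.4 CPM in ethanol (SD, n = 3), for a log2 fold change of 0.37 (SE 0.07, adjusted p 0.145 in edgeR and 0.00861 in DESeq2). It was the only gene of these 2 lists that DESeq2 called. Rbbp7 had a value of 0.21 and Chaf1b, a subunit of the chaperone that follows replication, of -0.20.

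Of 22 S phase genes, 11 lay above 0 and 11 below, with a median of 0.0079. Mki67, a marker of cycling cells, had a value of 0.17 and Mcm7, a subunit of the replicative helicase, of -0.13, both with an unadjusted p under 0.05. Their summed level was 619.7 to 673.7 TPM in control and 624.9 to 678.1 TPM in ethanol. Of 16 genes tested that act in histone removal in spermatids, 7 lay above 0, 9 below and 0 had an unadjusted p under 0.05 in edgeR. Among 8 other histone variants tested, 5 lay above 0. Macroh2a2, a macroH2A gene, had a value of -0.50 (SE 0.15, edgeR adjusted p 0.199), with 5.41 ± 0.35 CPM in control and 3.84 ± 0.65 CPM in ethanol and no overlap. The testis linker histone H1f6 had a value of -0.15 and the spermatid linker histone Hils1 of 0.05. No gene of these lists passed the edgeR test, and DESeq2 called 0 of their genes.

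Markers of the cells of the testis are given beside the histone genes, all with adjusted p-values above 0.05 in edgeR. Over all tested genes, 7.45% were higher and 5.89% lower at an unadjusted p under 0.05 in edgeR. DESeq2 called 0.81% of all tested genes higher and 0.507% lower. DESeq2 called 3 Sertoli cell markers, 2 Leydig cell, 2 erythroid, 1 spermatogonial (Id4), 1 spermatocyte (Hspa2) and 1 macrophage marker (Mrc1). Of 12 spermatogonial markers 9 lay above 0, and 2 of the other 3 had an unadjusted p under 0.05. Of 10 spermatocyte markers 9 lay below 0 and 5 had an unadjusted p under 0.05, with Hspa2 at 1279 ± 29.0 CPM in control and 1073 ± 80.2 CPM in ethanol. Of 9 round spermatid markers 8 lay below 0, 2 of them with an unadjusted p under 0.05, and of 8 elongating spermatid markers 5. Of 10 Sertoli cell markers 9 lay above 0, 6 of them and 1 below 0 with an unadjusted p under 0.05, and a summed level of 1065 to 1215 TPM in control and 1369 to 1508 TPM in ethanol. Of 8 Leydig cell markers 3 lay above 0 and 5 below, 1 and 3 of them with an unadjusted p under 0.05. Cyp11a1, the first enzyme of steroid synthesis, was read at 58.1 ± 14.4 CPM in control and 23.5 ± 8.94 CPM in ethanol (SD, n = 3), for a log2 fold change of -1.30 (SE 0.24, adjusted p 0.127 in edgeR and 0.0385 in DESeq2). Of 7 macrophage markers 6 lay above 0. All 5 erythroid markers lay above 0, each with an unadjusted p under 0.05 (56.6 to 100.3 TPM in control, 132.4 to 158.6 TPM in ethanol). Of 6 adipocyte markers 5 lay above 0, 3 of them with an unadjusted p under 0.05, with 62.3 TPM in ethanol library 1 and 21.6 to 30.6 TPM in the other 5 libraries, and 1 of them was at 0 in control library 2. Their part in the histone values was not tested.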

How the data were processed

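Total RNA-seq of mouse testis was read from 1 table of 45777 genes in 6 libraries. Ribosomal RNA was removed and a stranded kit was used, per the labels' protocols. HISAT2 and the build mm10 are named in the submitters' processing notes. What is not given in the sources used here is the version, the counting tool, its strand setting and how it treated reads that match several genes. Read counts per gene were deposited by the authors without normalization. FPKM and TPM per gene were computed by the authors and stand beside the counts, per the file headers. There were 0 sample columns outside these 6 libraries. The lowest chi-square per gene between 2 libraries was 7.67, so all 6 were counted.

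Counts were tested with edgeR 4.0.16 in R 4.3.3 (filterByExpr, TMM, quasi-likelihood F-test, no covariate), which kept 25073 genes, with Benjamini-Hochberg adjustment over all of them. The biological coefficient of variation was 0.102. CPM is TMM-scaled, and SEs were derived from fold changes and F statistics. Alternatives were DESeq2 1.42.0, limma-voom (limma 3.58.1), RLE factors, library totals as the scaling, all genes unfiltered, genes of at least 1 CPM in 3 libraries, limma-trend on log2(TPM + 1), log2(TPM + 0.1) and log2(FPKM + 1), the replicate number as a block, an offset for transcript length, and each library left out in turn. The procedure was tested on simulated data.

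The members, gene lists, classes and alternatives were chosen with earlier results of these data known. Named with values were the testis-specific and replacement members, H1f1 to H1f5, the 2 members of highest TPM in each replication-dependent core family, the 6 members of lowest p in each direction and up to 3 genes of lowest p in each list. Other genes named were chosen after their values were seen. Gene coordinates are from RefSeq (GRCm38.p6). Transcripts were taken from GENCODE M21, where 79 members were found.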

Additional observations from a re-analysis of the deposited data

How the results depend on the processing

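The number of genes called over all genes, 0 with edgeR, was 2 with the filter of 1 CPM in 3 libraries, 330 with DESeq2, 5 with limma-voom, 6 with the transcript length offset and 0 to 3 with 1 library left out. DESeq2 called 1 member (H1f10, adjusted p 0.0401), and the other settings without a block called 0. Replication-dependent members lower at an unadjusted p under 0.05, 6 as reported, were 3 with total counts alone, 3 without a filter, 2 on log2(FPKM + 1) and 2 to 23 with 1 library left out. Their median log2 fold change stayed below 0 in all settings, between -0.3592 (without ethanol library 3) and -0.02666 (without control library 3). The replacement variant median lay between -0.1683 (without ethanol library 3) and -0.02547 (without ethanol library 1). The testis-specific median lay between -0.05291 (without ethanol library 3) and 0.1335 (without ethanol library 1), and was -0.004648 without control library 2. Whether these libraries differ in cell makeup or in RNA was not tested. Fold changes of low members such as H4c14 and the H2al2b and H2al2c genes rest on few reads, and reads of near-identical copies cannot be assigned with certainty.

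Of the single genes, H2al1d turned above 0 with total counts alone (0.01127), on log2(TPM + 1) (0.03227), log2(TPM + 0.1) (0.03269) and log2(FPKM + 1) (0.001026). H2bc11 did so on log2(TPM + 1) (0.00942) and log2(TPM + 0.1) (0.009465). H2al1f turned below 0 with limma-voom (-0.001649) and the transcript length offset (-0.001448). With 1 library left out, log2 fold changes crossed 0 in these genes, with the lowest and highest values given: H2al1d -0.1433 to 0.09005, H2bc14 -0.1442 to 0.2055, H2al1a -0.05287 to 0.138, H2al1c -0.09185 to 0.1131, H2al1e -0.05296 to 0.16, H2al1f -0.1072 to 0.1235, H2al1g -0.09553 to 0.1111, H2al1h -0.05752 to 0.1422, H2al1m -0.04638 to 0.1039, H2ac1 -0.3386 to 0.04384, H2al1o -0.2606 to 0.1921, H2bc11 -0.2036 to 0.08727, H1f0 -0.2432 to 0.02728, H1f3 -0.221 to 0.0306, H2al1b -0.06307 to 0.1579, H2al1i -0.02755 to 0.1329, H2al2b -0.01026 to 0.48, H2al2c -0.1941 to 0.565 and H4c4 -0.005272 to 0.3147. The cause was not tested.

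Same-numbered libraries of the 2 diets had correlations of their deviations from the group means of -0.0581, 0.00288 and 0.127, and not every library correlated best with its own number, so that the numbers do not pair the libraries. With the replicate number as a block edgeR called 15 genes, 2 of them members (H2ac18 and H2ac19, adjusted p 0.03414), 18 replication-dependent members were lower at an unadjusted p under 0.05, and H2al1f was at -0.002065. H2afx, under an older symbol and not a member, had a log2 fold change of -0.7077 with an adjusted p of 0.002223 in that fit.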
